A study of Mus musculus with 2 samples.

Results

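KDM2A ChIP-seq tags were examined over 3 large olfactory receptor gene clusters of the mouse genome. The clusters were taken as fixed spans of the mm9 assembly, set by coordinates and not by a tag threshold: chromosome 2 from 85200001 to 89900000 (4.7 Mb), chromosome 7 from 109800001 to 112000000 (2.2 Mb) and chromosome 9 from 37800001 to 39900000 (2.1 Mb). Each span was divided into windows of 10 kb, which gave 470, 220 and 210 windows, or 900 in all. Of these, 898 were among the 253255 windows of the genome that held a tag of either library. The 5 Mb on each side of each cluster, 3000 windows in 6 flanks, served for comparison. The study asked where KDM2A binds in mouse embryonic stem cells (ESCs), and sequenced 1 library of DNA precipitated with a KDM2A-specific antibody and 1 library of input DNA made without an antibody. Both came from V6.5 ESCs, a hybrid line described as C57BL/6(F) x 129/sv(M) and also labelled with strain C57BL/6, without any treatment. The cells were grown on feeder fibroblasts and then moved to gelatin, free of feeders, before use. With 1 library per condition there were no replicates, and each test compares these 2 libraries and covers counting error only.

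Olfactory receptor genes form the largest gene family of the mouse. They encode G protein-coupled receptors of olfactory sensory neurons, stand in long tandem arrays, and are silent in most other cells. Their promoters are generally poor in CpG dinucleotides and without a CpG island. KDM2A is a demethylase of histone H3 lysine 36 whose ZF-CxxC domain binds CpG dinucleotides that are not methylated, and CpG islands are the places where such dinucleotides are concentrated.

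To show the kind of sequence found at these genes, RefSeq promoters of GRCm38.p6 were used. Each ran from 250 bases before to 50 bases after the annotated start. Whether transcription begins at that start was not tested, so these stretches may not be the promoters in use. The tags are in mm9 coordinates and no position was converted, so a gene could not be placed in a window, and the name of the clusters was not checked against gene positions in the files' own coordinates. In the gene order of GRCm38.p6 the longest run holding olfactory receptor genes had 293 of them on chromosome 2 (from Olfr987 to Olfr1274, 71 pseudogenes), 116 on chromosome 7 (from Olfr543 to Olfr650-ps1, 25 pseudogenes) and 127 on chromosome 9 (from Olfr160 to Olfr986, 31 pseudogenes). A run was allowed at most 20 other genes between olfactory receptor genes, which was set with the gene order in view. Few other named protein-coding genes stood inside the runs. They were Fads2b, Pramel7 and Pramel6 on chromosome 2, and Vwa5a, AW551984 and Tmem225 on chromosome 9. On chromosome 7 there were 13, among them the β-globin genes Hbb-bt, Hbb-bs, Hbb-bh2, Hbb-bh1 and Hbb-y, which encode chains of adult and embryonic hemoglobin. The nearest such genes outside were Lrrc55 and Ptprj, Rrm1 and Trim6, and Panx3 and Zfp202. Chromosomes 2, 7 and 9 have 3, 8 and 3 runs by this definition, so that flanks may also hold olfactory receptor genes.

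Of the 408 protein-coding olfactory receptor genes of the 3 runs, 345 (84.6%) had a promoter in the table. These promoters held a median of 1 CG dinucleotide (range 0 to 8). No CG was found in 33.3% of them, and 0 had 10 or more. Their median GC content was 33.7%. Over the 27025 promoters of all genes in the table the median was 7 CG dinucleotides, 5.78% had none, 43.9% had 10 or more, and the median GC content was 52.7%. Of these, 17492 belong to protein-coding genes, the like group, with a median of 13 CG dinucleotides, 5.20% without any, 57.2% with 10 or more and a median GC content of 56.3%. Of the 18 promoters of other genes inside the runs, 1 had 10 or more CG, that of Trim68 on chromosome 7 with 16. The 10 nearest genes on each side of the runs had 38 promoters, with a median of 6 CG and 34.2% with 10 or more. The stretches printed next set an olfactory receptor gene of median CG beside an extreme of its surroundings. In Olfr988 the 50 bases after the annotated start open with atg, the start codon, so coding sequence may enter these counts. For each chromosome the first is the olfactory receptor promoter with the median number of CG dinucleotides, and the second is, of the 10 nearest genes on each side of the run, the promoter with the most, so that the second was picked for its CG and is not typical of the neighbours. Both are written 5′ to 3′ on the strand of the gene, in lower case with each CG in capitals. On chromosome 2, Olfr988 (chr2:85353875-85354174, minus strand, GRCm38.p6) had 1 CG and the predicted gene Gm46752 (chr2:90580505-90580804, plus strand) had 43.
Olfr988: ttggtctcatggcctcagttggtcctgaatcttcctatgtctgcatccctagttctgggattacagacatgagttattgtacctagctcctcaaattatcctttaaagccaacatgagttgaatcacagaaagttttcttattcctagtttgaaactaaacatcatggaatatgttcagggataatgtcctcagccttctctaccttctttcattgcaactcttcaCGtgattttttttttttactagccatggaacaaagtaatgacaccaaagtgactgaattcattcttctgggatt
Gm46752: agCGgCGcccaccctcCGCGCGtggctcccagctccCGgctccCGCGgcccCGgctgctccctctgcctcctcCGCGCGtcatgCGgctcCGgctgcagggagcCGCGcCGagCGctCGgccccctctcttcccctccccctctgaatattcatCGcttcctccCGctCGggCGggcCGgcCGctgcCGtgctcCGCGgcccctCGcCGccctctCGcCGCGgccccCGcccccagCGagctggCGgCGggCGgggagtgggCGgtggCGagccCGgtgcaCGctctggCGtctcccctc

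On chromosome 7, Olfr543 (chr7:102477853-102478152, minus strand) had 1 CG, whereas Stim1 (chr7:102267569-102267868, plus strand), the calcium sensor of the endoplasmic reticulum, had 38.
Olfr543: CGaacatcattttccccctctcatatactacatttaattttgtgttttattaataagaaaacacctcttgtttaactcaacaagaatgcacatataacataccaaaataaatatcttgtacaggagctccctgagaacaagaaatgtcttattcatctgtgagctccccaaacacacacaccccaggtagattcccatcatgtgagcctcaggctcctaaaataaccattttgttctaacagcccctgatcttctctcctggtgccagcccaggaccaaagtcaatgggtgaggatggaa
Stim1: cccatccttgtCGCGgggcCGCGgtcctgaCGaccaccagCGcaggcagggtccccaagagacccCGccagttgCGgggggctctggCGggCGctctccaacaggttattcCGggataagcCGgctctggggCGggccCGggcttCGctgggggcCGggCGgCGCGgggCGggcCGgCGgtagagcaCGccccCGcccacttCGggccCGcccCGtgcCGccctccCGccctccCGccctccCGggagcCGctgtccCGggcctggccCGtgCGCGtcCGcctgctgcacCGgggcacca

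On chromosome 9, Olfr881 (chr9:37992242-37992541, plus strand) had 1 CG and Spa17 (chr9:37613672-37613971, minus strand), a sperm surface protein gene, had 24.
Olfr881: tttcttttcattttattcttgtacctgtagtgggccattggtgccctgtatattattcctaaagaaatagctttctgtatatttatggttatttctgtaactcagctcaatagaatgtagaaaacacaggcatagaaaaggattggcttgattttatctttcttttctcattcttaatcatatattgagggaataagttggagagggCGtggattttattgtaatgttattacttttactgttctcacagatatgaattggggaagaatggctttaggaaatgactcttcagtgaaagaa
Spa17: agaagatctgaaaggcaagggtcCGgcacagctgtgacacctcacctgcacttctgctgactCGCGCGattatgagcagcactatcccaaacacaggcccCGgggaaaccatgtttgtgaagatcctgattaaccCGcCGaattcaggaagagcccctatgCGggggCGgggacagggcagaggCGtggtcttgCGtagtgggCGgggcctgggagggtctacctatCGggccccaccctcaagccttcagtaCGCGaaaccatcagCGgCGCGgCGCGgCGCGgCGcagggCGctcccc

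**Figure D1:**
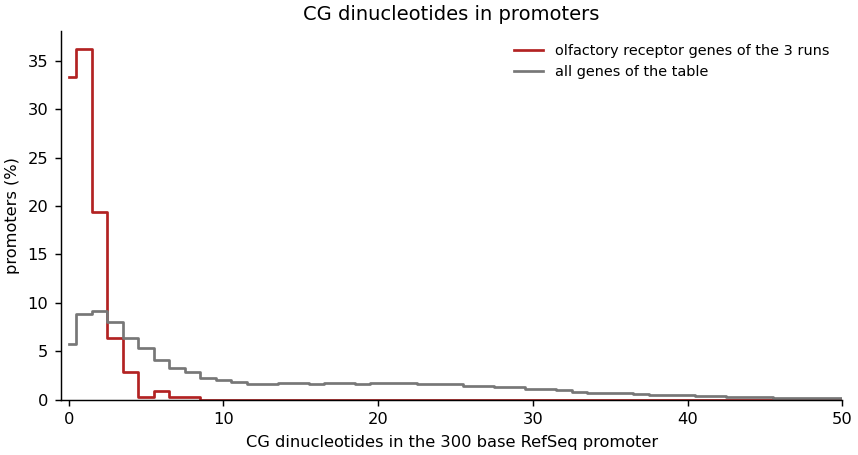
CG dinucleotides in 300 base RefSeq promoters of GRCm38.p6 (horizontal axis, shown up to 50), as the percentage of promoters (vertical axis), for 345 protein-coding olfactory receptor genes of the 3 runs (red) and 27025 promoters of all genes of the table, olfactory receptors included (grey). The red line ends at 8 CG, while 43.9% of the grey promoters had 10 or more.

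In the ChIP library 10042076 tags lay at 9564671 positions, counting each strand separately. In the input library 9760426 tags lay at 7764852 positions. A tag is the aligned position of 1 sequenced fragment end, and each was moved 50 bp toward the 3′ side before counting. In the genome a 10 kb window held on average 39.7 ChIP tags and 38.5 input tags.

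KDM2A ChIP tags were sparse in all 3 olfactory receptor clusters, and more so than input tags. The chromosome 2 cluster held 12.8 ChIP tags per 10 kb against 43.8 in its flanks. The chromosome 7 cluster held 16.7 against 49.6, and the chromosome 9 cluster 15.4 against 48.3. Input tags were sparse there too, with 20.3, 22.9 and 23.1 tags per 10 kb in the clusters against 40.5, 44.3 and 45.5 in the flanks. In all 3 clusters together the ChIP density was 0.304 times that of the flanks (95% interval 0.298 to 0.309), and the input density 0.497 times (0.490 to 0.505). A low input density means that fewer fragments of these spans were sequenced or placed, whatever the antibody. The part of base composition and of repeated sequence in this was not tested. The comparisons of ChIP shares therefore set ChIP against input in the same span. The counts of sites, further on, do not take out the low depth, since they use the genome mean where local input was lower.

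**Figure D2:**
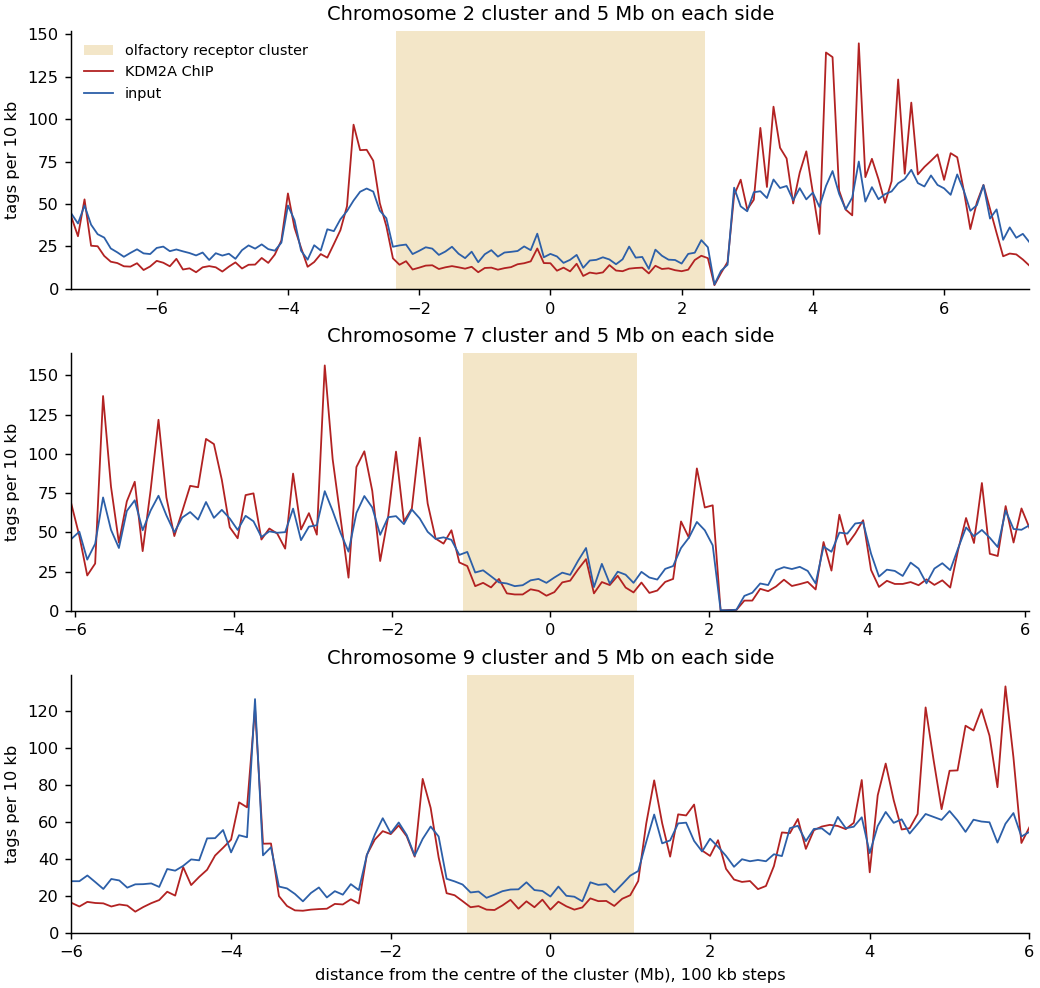
KDM2A ChIP (red) and input (blue) tags per 10 kb in steps of 100 kb (vertical axis) against the distance from the centre of each cluster in Mb (horizontal axis), for the clusters (shaded) and the 5 Mb on each side. ChIP lay below input through nearly all of the shaded spans, where the 100 kb shares were between 32.3% and 52.9%, and rose above input in peaks outside them.

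The share of ChIP tags is given among the tags of both libraries. It was 38.6% in the chromosome 2 cluster (6000 ChIP and 9549 input tags, 95% Wilson interval 37.8% to 39.4%). It was 42.3% in the chromosome 7 cluster (3682 and 5030 tags, 41.2% to 43.3%) and 40.0% in the chromosome 9 cluster (3232 and 4857 tags, 38.9% to 41.0%). In the flanks of the same chromosomes it was 51.9%, 52.8% and 51.5%, and in the genome 50.7%. The odds that a tag came from the ChIP library were thus 0.581 times those of the flanks on chromosome 2 (95% interval 0.561 to 0.602, adjusted p = 7.33e-207), 0.654 times on chromosome 7 (0.626 to 0.684, adjusted p = 2.38e-79) and 0.628 times on chromosome 9 (0.599 to 0.657, adjusted p = 5.09e-88, two-sided Fisher's exact test, Benjamini-Hochberg over 3 clusters). Taking each flank alone left the odds ratio below 1 in all 6 cases, from 0.525 against the upper flank of chromosome 2 to 0.778 against the lower flank of chromosome 9. The flanks were not alike: ChIP tags were 46.9% in the lower and 54.5% in the upper flank of chromosome 2, 55.0% and 48.5% on chromosome 7, and 46.1% and 54.6% on chromosome 9, and each of these 6 values lay above that of its cluster. With each position and strand counted once the share was 43.4% in the 3 clusters, 56.6% in the flanks and 55.2% in the genome, and the odds ratios were 0.560, 0.631 and 0.600 in the order of the chromosomes.

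The 3 clusters also differed from each other when each tag was taken as independent. Over 10 kb windows of the clusters the variance was 4.05 times the mean for ChIP and 3.94 times for input. The tests do not cover that wider spread, and the chromosome 2 and 9 pair lay near the threshold. The odds of a ChIP tag in the chromosome 2 cluster were 0.858 times those in the chromosome 7 cluster (adjusted p = 6.83e-08) and 0.944 times those in the chromosome 9 cluster (adjusted p = 0.0416), and those in the chromosome 7 cluster were 1.10 times those in the chromosome 9 cluster (adjusted p = 0.00369, two-sided Fisher's exact test over 3 pairs).

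Summed over the 3 clusters the odds ratio against the flanks was 0.611 (0.597 to 0.626). Part of this gap lay at the KDM2A sites of the flanks, and to measure the rest, all bins within 5 kb of a called site were left out (the calls are defined with the sites, further on). ChIP tags were then 38.9% in the clusters, 44.8% in the flanks and 43.6% in the genome. The summed odds ratio became 0.785 (0.765 to 0.804, adjusted p = 2.10e-83 over 2 summed comparisons, Fisher's exact test), and in the single clusters it was 0.780 on chromosome 2, 0.821 on chromosome 7 and 0.779 on chromosome 9. Against single flanks it ran from 0.701 (upper flank of chromosome 9) to values nearer 1 in the flanks that were lower in ChIP tags: 0.880 for the lower flank of chromosome 2, 0.897 for the upper flank of chromosome 7 and 0.903 for the lower flank of chromosome 9 (adjusted p = 4.43e-09, 3.91e-05 and 0.000121, Fisher's exact test over 6 flanks). Against the rest of the genome outside clusters and flanks it was 0.824 (0.806 to 0.843) away from called sites and 0.646 (0.632 to 0.660) with all bins. Where no site was called, the clusters were thus lower in ChIP tags than the flanks and the rest of the genome, each taken as a sum. Single stretches of the genome with lower shares were common, as given with the 100 kb windows further on.

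Values of single windows showed how even the clusters were. The 900 windows held a median of 13 ChIP tags (quartiles 9 and 18, range 0 to 64) and 21 input tags (quartiles 15 and 27, range 0 to 57). The flanks held a median of 35 ChIP tags (quartiles 18 and 61, range 0 to 810) and 44 input tags (28 and 58, 0 to 806). The variance of ChIP tags over windows was 4.05 times the mean in the clusters, close to the 3.94 times of input, whereas in the flanks it was 43.8 times for ChIP and 13.5 times for input. The means differ between the libraries, and the standard deviations in the clusters were 7.62 ChIP tags and 9.22 input tags. With each position and strand counted once the ratios were 3.65 for ChIP and 2.99 for input in the clusters, and 37.3 and 6.83 in the flanks. ChIP tags were fewer than input tags in 729 of the 900 windows (81.0%): 392 of 470 on chromosome 2, 167 of 220 on chromosome 7 and 170 of 210 on chromosome 9. This was so in 61.8% of the flanking windows and in 68.7% of those of the genome. Among the 823 windows with at least 10 input tags the median share of ChIP tags was 38.5%, against 45.8% in the flanks. Across windows of 1 library pair, ChIP and input counts went together with Pearson's r of 0.493 and Spearman's rho of 0.472 over the 900 windows, and 0.676 and 0.820 over the 3000 flanking windows. The windows share both libraries and their local coverage, so these values are a description, without a p.

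**Figure D3:**
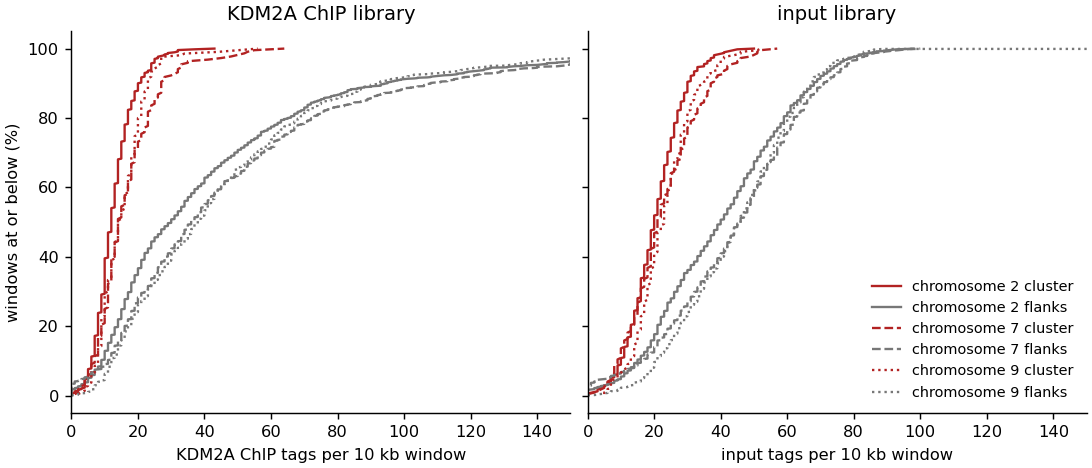
Cumulative percentage of 10 kb windows (vertical axis) at or below a number of tags (horizontal axis, shown up to 150) in the KDM2A ChIP library (left) and the input library (right), for the cluster (red) and both flanks (grey) of chromosomes 2 (solid), 7 (dashed) and 9 (dotted). All 3 clusters rise steeply, with upper quartiles of 18 ChIP and 27 input tags over the 900 windows, and the ChIP lines of the flanks run far to the right.

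The window with the most ChIP tags on chromosome 2, from 87350001 to 87360000, held 43 ChIP and 30 input tags, spread over 42 and 26 positions, and no bin of it was called. On chromosome 7 it was the window from 110240001 to 110250000, with 64 ChIP and 27 input tags. Of those 64 tags 49 lay in a single bin of 250 bp, and 31 positions were left in the window when each was counted once. On chromosome 9 it was the window from 39880001 to 39890000, near the upper edge, with 56 ChIP and 39 input tags. The windows with the most input tags were others: 87500001 to 87510000 on chromosome 2 (25 ChIP and 50 input tags), 109920001 to 109930000 on chromosome 7 (18 and 57) and 39860001 to 39870000 on chromosome 9 (27 and 52). These 3 windows were picked for their input, so ChIP tags below input tags there follow in part from the choice. No ChIP tag was found in 3 windows and no input tag in 4. The windows from 89060001 to 89070000 and from 89070001 to 89080000 on chromosome 2 were empty in both libraries, which leaves coverage and binding there unmeasured.

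In windows of 100 kb the share of ChIP tags ran from 32.3% to 45.0% on chromosome 2 (median 37.6%), from 35.0% to 52.9% on chromosome 7 (median 40.6%) and from 35.6% to 44.6% on chromosome 9 (median 39.7%). The median of 24663 such windows of the genome with at least 100 input tags was 43.8%, and 43 of 47, 16 of 22 and 19 of 21 windows of the clusters lay below it. Low shares were not particular to the clusters. Of the 24663 windows, 29.6% had a share below the 39.9% of the 3 clusters together. For the whole chromosome 2, 7 and 9 clusters these percentages were 21.9%, 42.9% and 29.9%. The lowest value was in the window from 88700001 to 88800000 of chromosome 2 (119 ChIP and 249 input tags, 95% Wilson interval 27.8% to 37.3%). The highest was in the window from 110200001 to 110300000 of chromosome 7 (203 and 181 tags, 47.9% to 57.8%). Without the bins within 5 kb of its 2 called sites the latter fell to 45.6% (40.0% to 51.3%). Between 100 kb windows without a called bin the difference was small, with 38.7% in 66 windows of the clusters (38.1% to 39.3%) and 40.2% in 11229 windows of the rest of the genome, which were deeper, at 19.9 ChIP and 29.5 input tags per 10 kb against 13.5 and 21.4.

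Because the clusters were shallow in input, windows of like input count were also compared, an alternative added after the data were seen. Windows were grouped by their own input count, which also enters the share. A window held on average 21.6 input tags in the clusters and 43.4 in the flanks. Counts of 40 or more were thus high for the clusters (35 of 900 windows) and ordinary for the flanks (1730 of 3000). Such grouping lowers the share in windows high for their span, so it does not control for depth. In windows with 20 to 29 input tags ChIP tags were 38.1% in the clusters, 42.1% in the flanks and 42.5% in the rest of the genome outside clusters and flanks. With 30 to 39 input tags they were 35.7%, 44.9% and 45.2%. With 40 or more they were 37.5%, 54.0% and 53.4%. At each of these depths the clusters were lower, with odds ratios against the flanks of 0.847, 0.679 and 0.512 (adjusted p = 6.58e-13, 2.10e-42 and 3.65e-60, Fisher's exact test over 5 depths). Without windows near called sites these odds ratios were nearer 1, at 0.873, 0.813 and 0.688. At 40 or more input tags the clusters then had 36.4% and the flanks 45.4%. At 10 to 19 input tags the clusters had 44.0%, the flanks 48.8% and the rest of the genome 44.8%. The difference from the flanks passed Fisher's exact test there (odds ratio 0.826, adjusted p = 3.38e-09) and that from the rest of the genome did not (odds ratio 0.971, interval 0.930 to 1.01, adjusted p = 0.178). The latter did pass when each position was counted once, with windows grouped by input positions (0.940, adjusted p = 0.000964, Fisher's exact test), and did not without windows near called sites (interval 0.957 to 1.05). Under 10 input tags the order turned, with 59.0% in 77 windows of the clusters and 54.6% in 127 windows of the flanks (odds ratio 1.20, interval 1.01 to 1.43, adjusted p = 0.0420, Fisher's exact test). The difference from the flanks was lost when each position was counted once (odds ratio 1.12, adjusted p = 0.118, Fisher's exact test) and without windows near called sites (1.11, adjusted p = 0.280, Fisher's exact test). Against the rest of the genome the odds ratio in this group was 1.22 (interval 1.08 to 1.37, adjusted p = 0.00104, Fisher's exact test). That difference also passed without windows near called sites (1.15, adjusted p = 0.0482, Fisher's exact test). It did not with each position counted once (1.11, adjusted p = 0.0520, Fisher's exact test). In the rest of the genome, too, the share was higher in this group (54.2%) than in the next. These windows of the clusters held 493 of the 19436 input tags of the clusters.

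**Figure D4:**
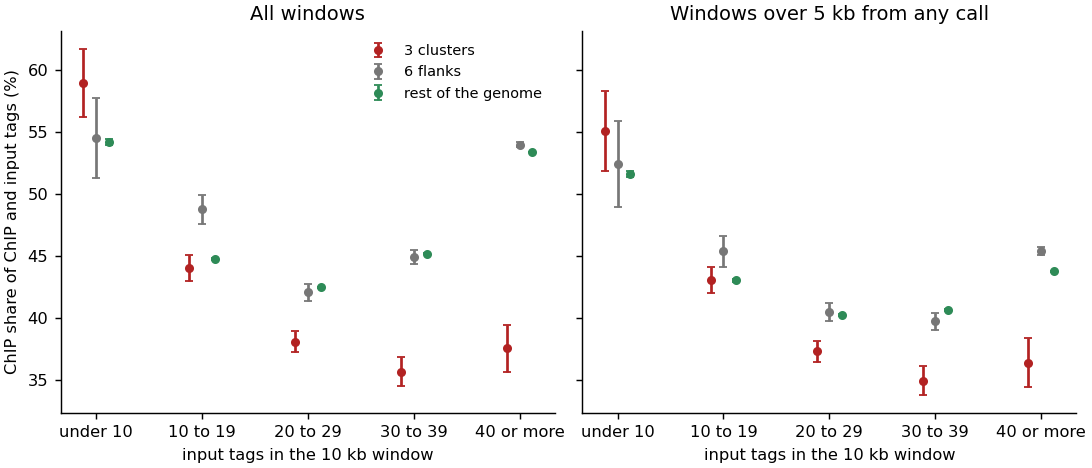
Share of ChIP tags among ChIP and input tags (vertical axis, starting above 0) in 10 kb windows grouped by their input tags (horizontal axis), for the 3 clusters (red), the 6 flanks (grey) and the rest of the genome (green), with all windows (left) and with windows that hold no bin within 5 kb of a called site (right). Bars are 95% Wilson intervals and cover counting error only. Red points lie lowest from 20 input tags upward, at 35.7% to 38.1% in the left panel, and highest under 10, at 59.0%.

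KDM2A sites were then sought in bins of 250 bp. A bin was called when its ChIP tags exceeded the larger of the genome mean of 0.991 tags and the scaled input of the surrounding 5 kb, by a one-sided exact Poisson test with Benjamini-Hochberg adjustment over all 10130200 bins and a limit of 0.01. Called bins within 500 bp were joined into a site, and the height of a site is the number of ChIP tags in its highest bin. In the genome 1.05% of bins were called, and 13.7% of 10 kb windows and 52.3% of 100 kb windows held a called bin. In the 3 clusters 37 of 36000 bins were called (0.103%), which formed 28 sites in 28 of the 900 windows (3.11%) and in 24 of the 90 windows of 100 kb (26.7%). In the flanks 1620 of 120000 bins (1.35%) formed 670 sites in 536 of 3000 windows (17.9%). Sites per Mb were 1.70 in the chromosome 2 cluster, 5.91 in the chromosome 7 cluster and 3.33 in the chromosome 9 cluster, against 22.3 in the flanks and 17.3 in the genome. The odds that a bin was called were 0.0359 times those of the flanks on chromosome 2 (9 bins, adjusted p = 5.45e-74), 0.130 times on chromosome 7 (17 bins, adjusted p = 3.82e-31) and 0.102 times on chromosome 9 (11 bins, adjusted p = 7.76e-29, two-sided Fisher's exact test, 3 clusters). Called bins held 3.16% of the ChIP tags of the clusters (2.87% to 3.48%) and 16.7% of those of the flanks.

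The limit of detection bears on these counts. At least 7 ChIP tags were needed for a call anywhere, which is 19.5 times the mean of a bin in the clusters (0.359 tags) and 5.93 times that of the flanks, so that a site of a given fold over its surroundings was harder to call in the clusters. In the flanks 7 tags often did not suffice, because local input set a higher limit. Of bins with 7 or more ChIP tags, 37 of 39 were called in the clusters and 1620 of 2554 in the flanks. Bins were therefore also counted at limits that differ between clusters and flanks, 2 comparisons chosen after the data were seen. In the clusters 39 bins (0.108%) held 7 or more ChIP tags. Scaled by the input density, 7 tags in the clusters correspond to 14.1 in the flanks, where 544 bins (0.453%) held 15 or more, and the odds ratio was 0.238 (p = 2.65e-26, two-sided Fisher's exact test). Scaled by the mean of ChIP tags and rounded up to whole tags, they correspond to 24 or more, which 155 bins of the flanks (0.129%) held. The odds ratio of 0.839 then no longer passed the threshold (interval 0.59 to 1.19, p = 0.349, two-sided Fisher's exact test). The scarcity of called bins thus held at equal tags and at equal input density. It was not detectable at about equal multiples of the mean ChIP density. That mean includes the sites themselves, whose called bins held 16.7% of ChIP tags in the flanks and 3.16% in the clusters. The limit of the flanks was thus raised by their own sites, so the last comparison cannot decide whether sites were scarcer over background. Sites with fewer than 7 tags in every bin were not detectable at this depth.

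With ChIP and input exchanged, the same procedure gave 21 called bins in the clusters and 173 in the flanks, and called 0.144% of the bins of the genome. The 37 bins called for KDM2A in the clusters thus stood beside 21 of the exchange, where the flanks had 1620 beside 173. When each position and strand was counted once, KDM2A calls were 29 bins in 23 sites of the clusters and 1506 bins in 608 sites of the flanks, with 0.97% of bins called in the genome. The exchange then gave 0 bins in the clusters, which allows a share of up to 0.00833% of their bins, and 2 in the flanks, at a genome value of 0.00328%.

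**Figure D5:**
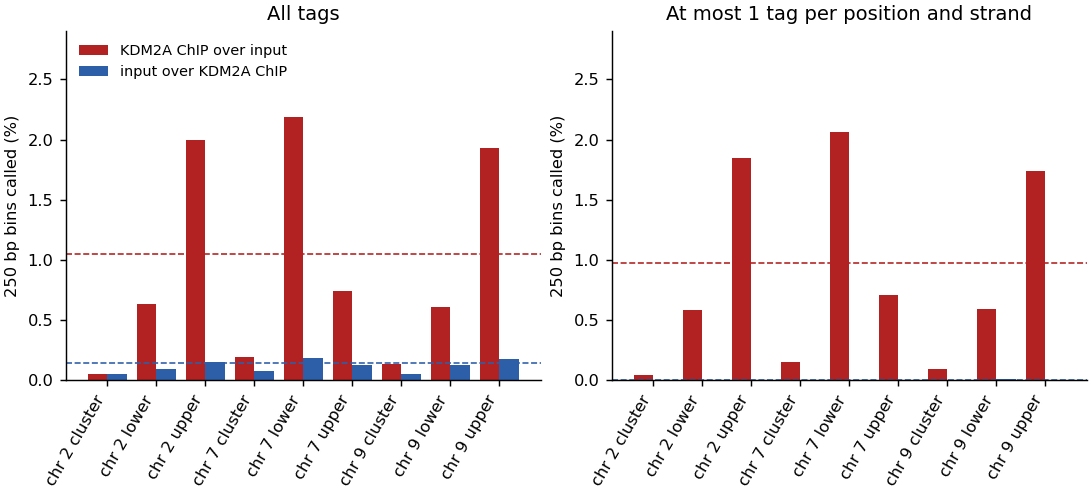
Percentage of 250 bp bins called (vertical axis) in each cluster and in its lower and upper flank (horizontal axis), for KDM2A ChIP over input (red) and input over ChIP (blue), with all tags (left) and with each position and strand counted once (right). Dashed lines are the percentages of the genome, 1.05% and 0.144% on the left and 0.97% and 0.00328% on the right. The red bars of the 3 clusters are below those of all 6 flanks.

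The sites of the clusters were few, and most were a single bin. Heights are in tags and were not scaled to the depth of a span, so those of clusters and flanks do not compare enrichment over the surroundings. The median height in the clusters was 10 tags, against 12 in the flanks and in the genome. A height of 15 tags was reached by 4 of 28 (14.3%), against 247 of 670 in the flanks (36.9%). A single bin made up 20 of the 28, 13 held no input tag, and 23 were called again when each position was counted once. In the chromosome 2 cluster 7 of 8 sites were a single bin, in the chromosome 7 cluster 9 of 13 and in the chromosome 9 cluster 4 of 7.

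The highest sites of each cluster were as follows, all in mm9. On chromosome 2 the highest lay from 87963001 to 87963500 and held 26 ChIP tags at 23 positions and no input tag, with a height of 15 (adjusted p = 1.02e-10, exact Poisson test). It was the only one of the 8 to reach 15 tags. The next held 11 tags (89360001 to 89360250) and 10 tags (89401001 to 89401250), both without input tags. The sites from 86601501 to 86601750 and from 87278001 to 87278250 held 9 ChIP tags each, with 0 and 1 input tags.

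On chromosome 7 the highest bin of the 3 clusters lay from 110249501 to 110249750. It held 49 ChIP tags and 1 input tag (adjusted p = 1.68e-59, exact Poisson test), but at only 16 positions, so that 33 of the 49 tags were copies of a position already counted. It was still called on positions alone. The site from 111795501 to 111796000 held 36 ChIP tags at 33 positions and no input tag, with a height of 24 (adjusted p = 6.54e-22, exact Poisson test), which made it the highest of the clusters by positions, with 21 in its highest bin. The sites from 110637251 to 110637500 (12 ChIP tags and 1 input tag), from 111405251 to 111405750 (18 and 0, height 11) and from 111869501 to 111869750 (11 and 0) followed.

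On chromosome 9 the highest site, from 39882001 to 39882750, lay 17.25 kb from the upper edge of the span and held 36 ChIP and 9 input tags over 3 bins, with a height of 16 (adjusted p = 1.19e-09, exact Poisson test). Farther inside, the site from 38359251 to 38359500 held 13 ChIP tags and no input tag (adjusted p = 1.66e-08, exact Poisson test) and that from 39203751 to 39204000 held 11 and 3. The sites from 38772751 to 38773250 and from 38996501 to 38997000 reached 10 tags, with 20 ChIP and 5 input tags and 17 and 4 in all. Which genes or promoters lie at these 15 sites was not analysed here.

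Long stretches of the clusters held no called bin. The longest was the first 1401.5 kb of the chromosome 2 cluster, from 85200001 to 86601500, with 1802 ChIP and 3066 input tags (37.0% ChIP, 35.7% to 38.4%) and no bin above 5 ChIP tags. On chromosome 9 it was 678 kb, from 39204001 to 39882000, with 1115 and 1687 tags (39.8%, 38.0% to 41.6%). On chromosome 7 it was 477.75 kb, from 110637501 to 111115250, with 615 and 950 tags (39.3%, 36.9% to 41.7%). Such stretches were not particular to the clusters. Of the 100 kb windows, 66 of 90 in the clusters and 101 of 300 in the flanks held no called bin. In the lower flank of chromosome 9, no 100 kb step from -6 to -4.9 Mb of the centre of the cluster held a called bin. In the clusters 75.0% of all bins held no ChIP tag and 67.0% no input tag, against 49.8% and 48.7% in the flanks.

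Going outward from the edges, tags of both libraries and called bins rose up to 600 kb and then varied. Within the first 100 kb inside the 6 edges there were 18.0 ChIP and 27.1 input tags per 10 kb, and deeper inside, up to 1 Mb, 13.9 to 16.1 ChIP tags. The first 100 kb outside held 21.7 ChIP and 28.2 input tags per 10 kb (43.4% ChIP) with 4 called bins. From 200 to 300 kb there were 36.6 and 36.1 (50.3%) with 21 called bins, and from 500 to 600 kb 76.8 and 52.4 (59.4%) with 79. Farther out they were lower again, with 53.7% ChIP and 55 called bins from 600 to 700 kb and with 51.4 and 48.9 (51.2%) and 33 called bins from 900 to 1000 kb. The inner steps of 100 kb had 0 to 5 called bins each, and shares of ChIP tags from 39.8% to 40.8%. Summed over the 6 edges, the share of ChIP tags was thus even over the inner 1 Mb and higher at each step outside. Single 100 kb windows of the clusters varied more, from 32.3% to 52.9%, and the middle of the chromosome 2 cluster is not in these steps.

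The nearest site outside each edge was 58.75 kb away below the chromosome 2 cluster (85141001 to 85141250, 7 ChIP and 2 input tags) and 335.25 kb above it (90235251 to 90235500, 37 and 11). It was 30.5 kb away below the chromosome 7 cluster (109769001 to 109769500, 30 and 0) and 548 kb above it (112548001 to 112548750, 37 and 5). On chromosome 9 it was 209.25 kb away below the cluster (37590501 to 37590750, 15 and 2) and 99.75 kb above it (39999751 to 40000750, 89 and 6). The highest sites of the flanks show what KDM2A enrichment reached nearby. They were 83564251 to 83565250 and 90729251 to 90730750 on chromosome 2 (113 ChIP and 7 input tags, and 157 and 9), 108011251 to 108013000 and 114513751 to 114515500 on chromosome 7 (123 and 8, and 209 and 4), and 44142751 to 44144000 on chromosome 9 (128 and 9). In the lower flank of chromosome 9 the highest site was high in both libraries, with 789 ChIP and 751 input tags from 35112751 to 35113250. No site inside the clusters held more than 49 ChIP tags.

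Repeated tags, those that follow the first at their position and strand, made up 3.65% of ChIP tags (3.34% to 3.99%) and 16.5% of input tags (16.0% to 17.0%) in the clusters, and 5.14% and 21.1% in the flanks. Input thus had more repeated tags than ChIP in clusters and flanks alike, and counting positions in place of tags raised the share of ChIP tags in both without closing the gap between them.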

How the data were processed

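KDM2A ChIP and input DNA of mouse ESCs were sequenced on an Illumina Genome Analyzer II. The authors deposited raw tag counts per mm9 position and strand, not normalized. The submitters' processing notes name Bowtie, with no version, and mm9. The highest count at 1 position was 7 for ChIP and 9 for input.

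Groups came from the sample labels. Tags were moved by 50 bp and summed in 250 bp bins and 10 kb windows, and for the calls input was scaled to the ChIP total (a factor of 1.03). ChIP shares have 95% Wilson intervals and were compared by two-sided Fisher's exact tests on tags. Tags that are PCR copies are not independent molecules, so intervals, limits and tests cover counting error only, and windows are not replicates. A count of 0 was given the limit of 3 counts. Python 3.11.15, numpy 2.4.6, pandas 2.3.3, scipy 1.17.1 and matplotlib 3.10.9 were used. The calling was tested on simulated Poisson counts drawn around smoothed input. That simulation covers neither repeated tags nor a spread wider than Poisson, so it does not give the rate of false calls in these data.

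The spans, lists and tests were chosen with earlier results of these data known. Named by rule were the 5 highest sites per cluster, the windows with the most ChIP and the most input tags, the longest stretch without a call, and the nearest and the highest site of each flank. Other windows and the limits of 15 tags and 100 kb were chosen after their values were seen. No mm9 sequence or annotation was used, so base composition, alignability and gene positions were not analysed here. Alternatives were positions counted once per strand, no movement of tags, 2 Mb flanks, single flanks, leaving out called sites, low windows or 1 cluster, 500 bp bins, an adjusted p limit of 0.0001, the genome mean alone and another input scaling. Input depth groups, called sites left out with positions counted once, the rest of the genome in place of flanks, and unequal tag limits were added after the data were seen.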

Additional observations from a re-analysis of the deposited data

How the results depend on the processing

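No paired analysis was possible because ChIP and input are single libraries. Of 41 odds ratios of ChIP tags recomputed under an alternative, 40 stayed below 1 and past the threshold. The exception was the 1.20 of windows with under 10 input tags alone. The ChIP density of the clusters over that of the flanks was 0.310 with 2 Mb flanks and 0.416 with called sites left out. The input density ratio was 0.526 with 1 tag per position and strand, 0.518 with 2 Mb flanks, 0.530 with called sites left out and 0.509 without low windows. An adjusted p limit of 0.0001 left 17 called bins in the clusters and 939 in the flanks. The genome mean alone gave 39 in the clusters and 2554 in the flanks. The odds ratio of a called bin passed the threshold under every alternative but the added one at about equal multiples of the mean ChIP density (0.839, p = 0.349, Fisher's exact test). That mean includes the called sites themselves. Of the 28 sites of the clusters, 14 were called under all 6 alternatives for calls, fewest (14) at the limit of 0.0001.

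With the libraries exchanged, called bins in clusters and flanks numbered 0 and 2 with 1 tag per position and strand, 8 and 80 with 500 bp bins, 1 and 9 at the limit of 0.0001 and 43 and 965 with the genome mean alone. Scaling input by bins outside sites gave 93 in the flanks. The odds ratio of exchanged calls was 0.370 at the limit of 0.0001 (p = 0.471, Fisher's exact test) and 0.681 with that scaling (p = 0.144, Fisher's exact test), where fewer bins were called and the difference between clusters and flanks no longer passed the threshold. It could not be computed with 1 tag per position and strand. Depth limits the counts of sites, since 7 tags were needed for a call. Without replicates, how far these shares vary between cultures or libraries is unknown.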
